A study of Mus musculus with 4 samples.

Results

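*Spp1*, *Trem2*, *Gpnmb*, *Lgals3*, *Cd9* and *Apoe* are 6 genes that are often read together as a signature of lipid-associated macrophages. They were taken by symbol from the 30905 genes of a single-cell RNA sequencing matrix of transplanted mouse hearts, and all 6 were found. Donor hearts from BALB/c mice (allogeneic grafts, strain labelled Balb/C) or from C57BL/6J mice (syngeneic grafts) had been joined to the abdominal vessels of C57BL/6J recipients, 2 grafts of each kind, and were collected on day 5. Cells of the whole digested graft were captured with the 10x Genomics Chromium 3′ kit, so donor and recipient cells were mixed in each library, and no source used here describes a sort before capture. The matrix pools 4 libraries that only the suffix of the cell barcode (1 to 4) sets apart, and no source used here ties a suffix to a graft. Allogeneic and syngeneic grafts were therefore not compared, and every value below describes groups of cells or libraries in 1 pooled matrix. The replicate grafts of a condition cannot be identified in this matrix, so no test was run. Intervals are exact 95% intervals that cover counting error only.

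The products of these genes meet at the surface and in the lysosomes of macrophages that take up lipid and dead cells. *Spp1* encodes osteopontin, a secreted ligand of integrins and of CD44. TREM2 is a lipid-sensing receptor that signals through the adaptor TYROBP, and apolipoprotein E, the lipid carrier encoded by *Apoe*, is one of its ligands. GPNMB is a transmembrane glycoprotein of endosomes and lysosomes, galectin-3 (*Lgals3*) is a sugar-binding lectin, and CD9 is a tetraspanin of the cell surface. Macrophages with this signature are known from fat tissue, atherosclerotic plaques and injured hearts.

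The matrix held 53824 barcodes, of which 42395 remained after filters and doublet removal, and 308 barcode sequences occurred in 2 libraries. The libraries held between 96020294 and 166079145 UMIs (unique molecular identifiers, each counting 1 captured transcript), with medians of 4759 to 9784 per barcode. Levels are given in the usual CPM unit, the UMIs of a gene pooled over a group of cells and scaled by the pooled non-mitochondrial UMIs of the same cells. The 42395 cells formed 27 clusters, which fell into 12 cell classes named from marker genes and a set of 4137 cells left unnamed. The 8580 macrophage-like and 1295 dendritic-like cells, together called phagocytes here, were clustered again into 14 subclusters, 10 of them named. The 6 genes and 67 related genes were left out of the genes used for clustering, so the groups were not drawn from them. Library 4 gave 7001 of the 9875 phagocytes, and libraries 1, 2 and 3 gave 608, 1026 and 1240. Several named groups came almost wholly from 1 library. All 2143 infiltrating-like cells and 3390 of the 3392 inflammatory-like cells were of library 4, and 836 of the 864 Arg1-like cells were of library 2. Of the 1299 cells of resident-like subcluster 4, 965 were of library 3 and 325 of library 1, while 139 of the 145 cells of resident-like subcluster 10 were of library 2. Where 2 groups share no library, group and library cannot be told apart.

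The members lie on 5 chromosomes of the GRCm38 (mm10) assembly as annotated in GENCODE M21. *Spp1* (ENSMUSG00000029304) spans chr5:104435118-104441050 on the plus strand, and its gene model overlaps Gm42793, a transcript of the same strand without a settled class that is not among the genes of the matrix. *Trem2* (ENSMUSG00000023992) spans chr17:48346401-48354147, *Gpnmb* (ENSMUSG00000029816) chr6:49036546-49070929 and *Lgals3* (ENSMUSG00000050335) chr14:47367751-47386160, all on the plus strand. *Cd9* (ENSMUSG00000030342) lies at chr6:125460266-125494791 and *Apoe* (ENSMUSG00000002985) at chr7:19696109-19699188, both on the minus strand. *Cd9* overlaps the opposite-strand transcripts Gm28809 and Gm26728. The 3′ kit marks strand and the authors' counter uses it by default, so opposite-strand transcripts are counted apart.

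The windows of 250 bases upstream of the start site are shown for *Spp1*, *Trem2*, *Gpnmb* and *Apoe*, the members with the widest range of levels among the phagocyte groups. They were read from RefSeq on GRCm38.p6, 5′ to 3′ on the strand of the gene, for the first listed start site of each gene. Capitals mark matches on either strand to GAGGAA, the core letters bound by PU.1 (the master regulator of macrophages), or to TGANTCA, the AP-1 element.
Spp1, chr5:104434861-104435110, plus strand: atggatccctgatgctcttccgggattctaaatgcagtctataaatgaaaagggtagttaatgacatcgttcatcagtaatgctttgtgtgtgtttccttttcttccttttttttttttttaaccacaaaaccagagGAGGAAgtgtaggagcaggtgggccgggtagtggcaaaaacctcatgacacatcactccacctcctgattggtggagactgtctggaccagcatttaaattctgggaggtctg
Trem2, chr17:48346151-48346400, plus strand: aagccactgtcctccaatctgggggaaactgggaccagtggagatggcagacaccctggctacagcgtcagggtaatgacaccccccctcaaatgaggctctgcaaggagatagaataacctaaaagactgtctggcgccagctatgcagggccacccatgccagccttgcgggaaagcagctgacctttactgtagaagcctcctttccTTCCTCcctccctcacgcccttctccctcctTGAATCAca
Gpnmb, chr6:49036268-49036517, plus strand: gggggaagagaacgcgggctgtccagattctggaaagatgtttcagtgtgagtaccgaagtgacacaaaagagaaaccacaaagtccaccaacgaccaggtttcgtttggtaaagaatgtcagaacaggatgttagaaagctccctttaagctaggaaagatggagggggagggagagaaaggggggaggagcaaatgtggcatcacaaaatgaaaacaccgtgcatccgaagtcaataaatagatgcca
Apoe, chr7:19699189-19699438, minus strand: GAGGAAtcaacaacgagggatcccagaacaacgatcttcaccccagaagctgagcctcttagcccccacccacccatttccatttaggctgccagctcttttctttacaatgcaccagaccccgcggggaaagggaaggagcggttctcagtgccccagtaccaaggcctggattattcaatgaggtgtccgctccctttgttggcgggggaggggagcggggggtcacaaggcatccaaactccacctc
The *Spp1* window holds 1 GAGGAA match, the *Apoe* window holds 1 at its upstream end, and the *Trem2* window holds 1 as its reverse complement followed by 1 TGANTCA match. Of 32851 RefSeq windows of the same length, 23.3% hold GAGGAA and 6.75% hold TGANTCA. The E-box CACGTG, bound by the lysosomal regulators TFEB and MITF and present in 6.02% of windows, was in none of the windows listed for the 6 genes. The *Gpnmb* window holds none of the 3 motifs, and the windows of *Lgals3* and *Cd9* hold none either. A match is a run of letters and not a measured binding site.

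With all libraries pooled, macrophage-like cells had the highest level of 4 of the 6 genes among the 12 classes. *Apoe* stood at 7078 CPM in these cells (interval 7064 to 7093), *Lgals3* at 2059 (2051 to 2067), *Spp1* at 1024 (1019 to 1029.8) and *Trem2* at 190.1 (187.7 to 192.5). Against all other cells pooled, these 4 genes were at least 2-fold higher, with 10 CPM added to both levels before division, as in every fold below. That is 4 of 6 members, where 9.01% of the 9485 genes tested were at least 2-fold higher and 20.1% at least 2-fold lower. *Trem2* was 13.8-fold higher (190.1 against 4.47 CPM), *Lgals3* 13.8-fold (2059 against 139.7), *Spp1* 6.88-fold (1024 against 140.3) and *Apoe* 5.80-fold (7078 against 1212). *Gpnmb* was 1.95-fold higher, 31.4 against 11.2 CPM, and did not reach the threshold. *Cd9* went the other way and was 2.84-fold lower, 150.1 against 445.0 CPM. Library 4 decided the call for *Cd9*: without its cells the log2 fold was -0.23, and with an unweighted mean of the libraries it was -0.41. *Gpnmb* passed 2-fold without library 1, without library 4 and with the unweighted mean, at log2 folds of 1.00, 1.84 and 2.01. In library 4 alone *Spp1* stood at 99.0 CPM in macrophage-like cells, below the 130.6 CPM over all kept cells of that library.

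**Figure D1:**
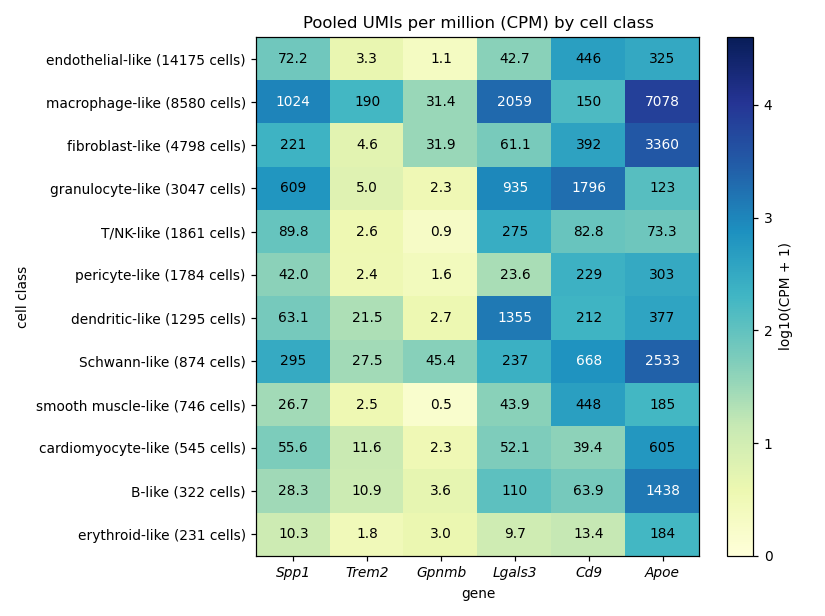
Pooled level of each of the 6 genes (columns) in the 12 named cell classes (rows, with their cell numbers), printed in CPM and coloured on a log10 scale. *Trem2* reaches 190 CPM in macrophage-like cells and 27.5 or less in every other class, while *Cd9* is highest in granulocyte-like cells at 1796 CPM.

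*Trem2* was the member held most by macrophage-like cells: 94.8% of its UMIs in all 42395 cells were theirs. The shares were 86.2% for *Lgals3*, 75.6% for *Spp1*, 71.3% for *Apoe*, 54.3% for *Gpnmb* and 12.5% for *Cd9*. For shares of cells, those with at least 1000 UMIs were thinned to 1000, and shallower cells were left out. The latter included 501 of 1295 dendritic-like, 226 of 874 Schwann-like, 99 of 8580 macrophage-like and 24 of 1861 T/NK-like cells. Of the thinned macrophage-like cells 13.1% held a *Trem2* UMI, against 0.218% of T/NK-like cells, lymphocytes that should lack *Trem2*. The corresponding shares were 12.5% and 4.35% for *Spp1*, 41.9% and 11.1% for *Apoe*, 69.6% and 19.9% for *Lgals3*, 1.76% and 0.0544% for *Gpnmb*, and 10.9% and 9.42% for *Cd9*. Before thinning the median depths were 14204 and 8454 UMIs per cell. The T/NK-like cells are mostly of library 4 (1401 of 1861), and their *Spp1* level was 431, 53.7, 82.5 and 69.2 CPM in libraries 1 to 4, with 237 UMIs in 1 cell of library 1. Macrophage-like cells did not have the highest thinned share for *Spp1*, which was at 23.0% in granulocyte-like and 21.3% in Schwann-like cells. The same holds for *Apoe*, at 73.5% in Schwann-like, 63.0% in fibroblast-like and 54.8% in B-like cells, and for *Gpnmb*, at 3.73% in fibroblast-like and 3.4% in Schwann-like cells. For *Spp1* and *Apoe* the shares and the levels thus order the classes differently.

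Other classes also held these transcripts. *Gpnmb* was highest in Schwann-like cells, the glia of cardiac nerves, at 45.4 CPM (39.1 to 52.3). Fibroblast-like cells followed at 31.9 (30.7 to 33.2) and macrophage-like cells at 31.4 (30.4 to 32.4), and these last 2 intervals overlap. The distance of Schwann-like cells from both rested on 1 cell, which held 55 of their 188 *Gpnmb* UMIs. With the top cell of each class left out, *Gpnmb* stood at 32.2 CPM in Schwann-like cells and 31.7 in fibroblast-like cells. *Apoe* stood at 3360.5 CPM in fibroblast-like cells, 2533 in Schwann-like cells and 1438 in B-like cells. Fibroblast-like cells held 35.9% of all *Gpnmb* UMIs and 22.0% of all *Apoe* UMIs. Their *Apoe* level was 7034 CPM in library 1, 1772 in library 3 and 534 in library 4, and *Gpnmb* followed the same order at 60.8, 20.1 and 6.54 CPM. *Cd9* was highest in granulocyte-like cells at 1796 CPM (1773 to 1820), with 1014 in library 1, 1845 in library 2 and 1501 in library 3. *Spp1* was second highest there, at 609.0 CPM, with 317, 623 and 514 CPM in the same libraries. *Lgals3* was second in dendritic-like cells at 1355 CPM followed by granulocyte-like cells at 935.

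Among the 10 named phagocyte subclusters the 6 genes did not share 1 order. *Spp1* was highest in the Arg1-like cells of subcluster 5, named for *Arg1*, the arginine-degrading enzyme, at 5229.6 CPM (5190.1 to 5269). Resident-like subcluster 4, which expressed the fractalkine receptor gene *Cx3cr1*, followed at 2435 CPM (2413 to 2458), and the cycling subcluster at 2066 (2022 to 2111). In the cycling subcluster 1 cell held 4777 of the 8431 *Spp1* UMIs, and the level was 914 CPM without that cell and 200.6 in its 77 cells of library 4. Every other named subcluster lay between 16.1 and 169 CPM. The infiltrating-like cells stood at 38.1 CPM (36.0 to 40.4) and inflammatory-like subcluster 3 at 38.4 (35.4 to 41.5), so these neighbours do not differ beyond counting error. Both carried the monocyte genes *Ly6c2* (1812 CPM in the infiltrating-like cells, 2026 in subcluster 3) and *Plac8* (5418 and 6803 CPM).

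*Trem2* and *Apoe* were both highest in resident-like subcluster 4. *Trem2* stood at 822 CPM there (809 to 835), with cycling cells at 329.9 (312 to 348) and resident-like subcluster 10 at 164 (147 to 183). Inflammatory-like subcluster 2 at 113 CPM (109.8 to 117) and nonclassical monocyte-like cells at 109 (89.8 to 130.3) overlap in their intervals. Arg1-like cells, the highest in *Spp1*, had 82.0 CPM of *Trem2*, and conventional dendritic-like and mature dendritic-like cells had 4.05 and 4.96. *Apoe* reached 37574 CPM in subcluster 4 and 8707 in subcluster 10. Cycling cells held 8115 CPM of *Apoe* and nonclassical monocyte-like cells 4191. Infiltrating-like cells (241 CPM) and inflammatory-like subcluster 3 (224 CPM) were below every other named group but the conventional dendritic-like cells (104 CPM). For mature dendritic-like cells (377 CPM) this order rested on 1 cell with 226 of their 304 *Apoe* UMIs. With top cells left out they stood at 98.3 CPM, below infiltrating-like cells (237) and subcluster 3 (215).

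*Gpnmb* had the narrowest distribution. It stood at 136 CPM in resident-like subcluster 4 (131 to 142), at 24.1 in inflammatory-like subcluster 2, at 20.3 in cycling cells and at 11.2 in Arg1-like cells. The other named groups had 6.61 CPM or less. Resident-like subcluster 10 had 0.986 CPM (0.119 to 3.56), from 2 UMIs in 145 cells. *Lgals3* was spread most evenly: 8 of the 10 named subclusters lay between 1731 and 2587 CPM. The 2 exceptions were resident-like subcluster 10 at 305 CPM and mature dendritic-like cells at 430. *Cd9* was highest in Arg1-like cells at 746 CPM (731 to 761) and lowest in infiltrating-like cells at 28.5, with resident-like subclusters 4 and 10 at 257 and 206.

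**Figure D2:**
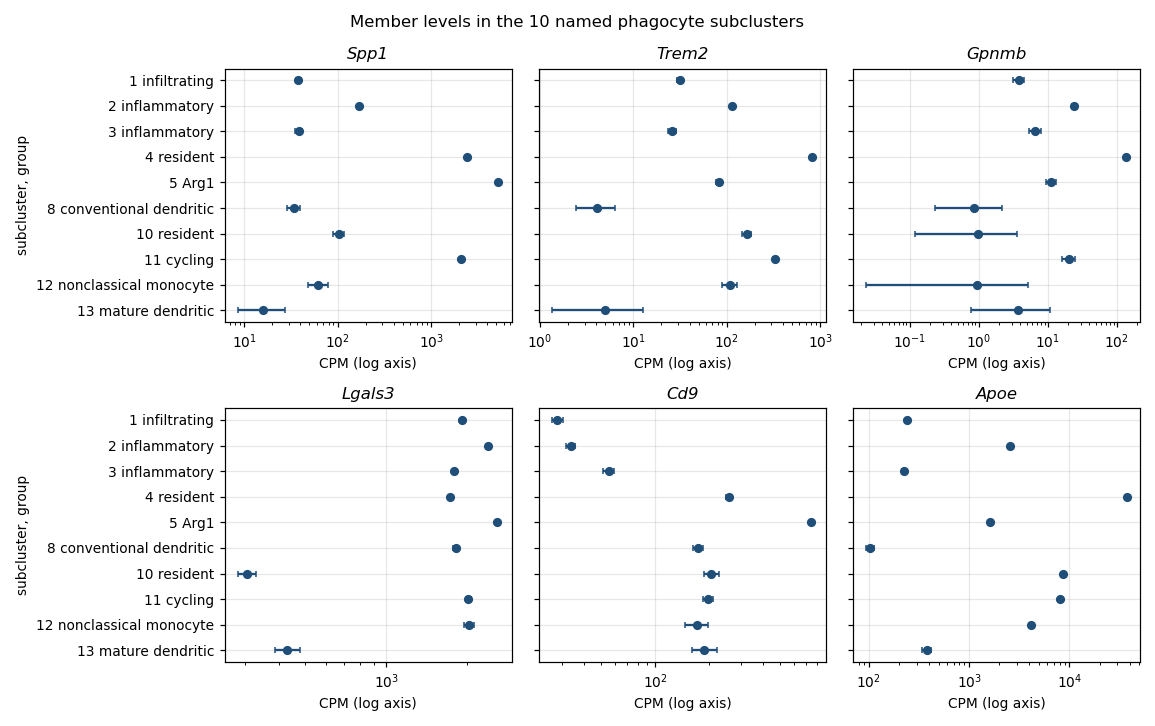
Level of each gene in the 10 named phagocyte subclusters, in CPM on a log axis that differs between panels. Points are pooled levels and bars are exact 95% Poisson intervals (counting error only). *Trem2*, *Gpnmb* and *Apoe* peak in resident-like subcluster 4, *Spp1* and *Cd9* in the Arg1-like cells, and *Lgals3* varies least.

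When infiltrating-like were set against resident-like phagocytes, 5 of the 6 genes were at least 2-fold lower in the infiltrating-like cells and none was higher. Over the 7838 genes tested, 8.6% were at least 2-fold lower and 6.81% at least 2-fold higher. *Apoe* was 138-fold lower (241 against 34667 CPM), *Spp1* 45.9-fold lower (38.1 against 2200.4), *Trem2* 18.5-fold lower (31.4 against 755), *Gpnmb* 9.60-fold lower (3.8 against 122) and *Cd9* 6.82-fold lower (28.5 against 252). *Lgals3* differed by 1.21-fold, 1919 against 1587 CPM. The infiltrating-like cells were all of library 4 and 2 of the 1444 resident-like cells were, so this contrast is also one of libraries. Resident-like is a name from markers, and the origin of these cells was not tested. Subcluster 4 gave 1299 of them. It held the infiltrating marker *Ccr2* at 266 CPM, against 9.86 in subcluster 10 and 554 in infiltrating-like cells. The infiltrating markers *Ly6c2* and *Plac8* stood at 6.68 and 27.6 CPM in subcluster 4, against 1812 and 5418 in infiltrating-like cells. In subcluster 10, which gave the other 145 resident-like cells, *Lgals3* stood at 305 CPM, below infiltrating-like cells, and *Gpnmb* at 0.986, from 2 UMIs. The remaining members were above infiltrating-like cells there, *Apoe* at 8707 CPM, *Cd9* at 206, *Trem2* at 164 and *Spp1* at 103. The folds changed with the clustering, and why was not tested. With 2 coarser clusterings the resident name covered 145 or 275 cells, and the infiltrating name 1417 or 2129 in place of 2143. The log2 fold was then -2.0 or -2.48 for *Spp1* in place of -5.52, -2.39 or -1.93 for *Trem2* in place of -4.21, and -6.03 or -4.93 for *Apoe* in place of -7.11. It was -2.33 or -2.15 for *Cd9* in place of -2.77, 0.10 or 0.18 for *Gpnmb* in place of -3.26, and 2.58 or 2.06 for *Lgals3* in place of 0.27.

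The 2 resident-like subclusters differed widely in the same genes. Subcluster 10 carried *Lyve1* (332 CPM against 7.29 in subcluster 4), *Folr2* (368 against 119) and *Cd163*. *Cx3cr1* went the other way, at 36.5 CPM in subcluster 10 against 380 in subcluster 4. Subcluster 10 was at least 2-fold lower than subcluster 4 in 5 of the 6 genes, against 5.48% of the 7956 genes tested. None was 2-fold higher, against 4.73%. *Spp1* was 21.6-fold lower (103 against 2435 CPM, or 58.7 against 2049 with the top cell of each group left out), *Gpnmb* 13.3-fold lower, *Lgals3* 5.52-fold lower (305 against 1731 CPM), *Trem2* 4.77-fold lower and *Apoe* 4.31-fold lower. *Cd9* differed by 1.24-fold. Markers of fibroblasts summed to 557 CPM in subcluster 4 and 75.4 in subcluster 10, with all 7 markers detected in both. The part of these markers in the difference was not tested. The lowered members stood at 3360.5 CPM (*Apoe*), 220.9 (*Spp1*), 61.1 (*Lgals3*), 31.9 (*Gpnmb*) and 4.62 (*Trem2*) in fibroblast-like cells themselves.

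Arg1-like cells held a different set of members from the resident-like cells. Against infiltrating-like cells, 4 of the 6 genes were at least 2-fold higher and none lower, where 5.48% of the 7405 genes tested were higher and 8.1% lower. The differences were 109-fold for *Spp1*, 19.7-fold for *Cd9*, 6.42-fold for *Apoe* and 2.22-fold for *Trem2*. *Lgals3* and *Gpnmb* were 1.35-fold and 1.54-fold higher. Against all resident-like cells, *Spp1* (2.37-fold) and *Cd9* (2.88-fold) were higher, 2 of 6 genes beside 4.72% of all genes. *Apoe* (21.5-fold), *Trem2* (8.32-fold) and *Gpnmb* (6.24-fold) were lower, 3 of 6 beside 9.17%.

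Library 2 held both groups, with 836 Arg1-like and 146 resident-like cells. Of the latter, 139 were of subcluster 10, while subcluster 4 gave 1299 of the 1444 resident-like cells of all libraries. The comparison within library 2 thus used mostly other resident-like cells than the pooled one. There 3 of the 6 genes were at least 2-fold higher in Arg1-like cells, against 3.99% of the 7520 genes tested. *Spp1* stood at 5252 against 118 CPM (41.1-fold, or 61.1-fold without the top cells), *Lgals3* at 2506 against 334 (7.32-fold) and *Cd9* at 749 against 194 (3.72-fold). *Apoe* was 5.06-fold lower, 1560 against 7929 CPM, where 4.49% of genes were lower. *Trem2* was 1.88-fold lower at 78.2 against 156 CPM, and *Gpnmb* was under 10 CPM in both and was not tested.

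Granulocyte markers, among them the neutrophil alarmin gene *S100a8*, summed to 5709 CPM in the Arg1-like cells of library 2. They summed to 195169 CPM in granulocyte-like cells, 3938 in endothelial-like cells, 2389.9 in T/NK-like cells and 1222 in resident-like cells of the same library. The part of these markers in the contrast with resident-like cells was not tested. *Spp1* was higher in the 205 Arg1-like cells where these markers lay under 1000 CPM (6210.2 CPM) than in the other 631 (4792 CPM). *Cd9* stood at 685 CPM in the first set and 779.9 in the second. These sets were not matched for depth. Granulocyte-like cells of library 2 themselves had 623 CPM of *Spp1* and 1845 of *Cd9*.

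Within library 4, where infiltrating-like and inflammatory-like cells were captured together, 4 of the 6 genes were at least 2-fold higher in the inflammatory-like cells and none lower. Only 0.511% of the 7050 genes tested, 36 genes, were at least 2-fold higher, and none was at least 2-fold lower. *Apoe* stood at 1853 against 241 CPM (7.42-fold), *Spp1* at 129.98 against 38.1 (2.91-fold), *Trem2* at 87.3 against 31.4 (2.35-fold) and *Gpnmb* at 18.9 against 3.8 (2.10-fold). *Cd9* and *Lgals3* were 1.30-fold and 1.15-fold higher. The call for *Gpnmb* rested on 1 cell with 174 UMIs: with the top cell of each group left out the fold was 1.93. *Cxcl9* and *Cxcl10*, from the inflammatory marker list, were high in both groups. *Cxcl9* stood at 2728 CPM in infiltrating-like cells, and at 3550 and 3340 in inflammatory-like subclusters 2 and 3. *Cxcl10* stood at 1833, 1378 and 3564 CPM in the same order. The inflammatory-like cells were of 2 kinds, with the complement gene *C1qa* at 4423 CPM in subcluster 2 and 419 in subcluster 3. Within library 4, subcluster 2 was at least 2-fold higher than subcluster 3 in the same 4 genes and lower in none, beside 1.51% of 7225 genes higher and 2.44% lower: *Apoe* 10.9-fold, *Spp1* 3.70-fold, *Trem2* 3.42-fold and *Gpnmb* 2.05-fold (1.90-fold without the top cells). Subcluster 3 was within counting error of the infiltrating-like cells in *Spp1*. It stood at 224 against 241 CPM in *Apoe*, 26.1 against 31.4 in *Trem2* and 6.61 against 3.8 in *Gpnmb*. The higher *Apoe*, *Spp1* and *Trem2* of the inflammatory-like cells thus lay in subcluster 2.

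By library, the levels in macrophage-like cells spanned more than their counting intervals for all 6 genes. *Spp1* stood at 3667, 4435, 1990.05 and 99.0 CPM in libraries 1 to 4, so library 4 was far below the other three. In library 1 a single cell held 7096 of the 23838 *Spp1* UMIs, and in library 3 a single cell held 4777 of 31652. With the top cell of each library left out the levels were 2596, 4311, 1699 and 91.9 CPM. *Trem2* stood at 619.6, 87.9, 787 and 69.99 CPM and *Apoe* at 28137, 2438, 34915 and 1380.3, with libraries 1 and 3 high and libraries 2 and 4 low in both genes. *Gpnmb* followed at 195, 7.24, 84.2 and 14.1 CPM. *Cd9* was highest in library 2, at 340.2, 660.2, 231 and 37.8 CPM. *Lgals3*, at 2089, 2178, 1627 and 2114 CPM, had the smallest spread between libraries. The libraries also differed in which subclusters they held, as given above, and the part of that in these levels was not tested. Without library 4 the pooled level of *Spp1* was 3255 CPM in place of 1024, and that of *Apoe* 20817.5 in place of 7078. Without library 2 *Spp1* stood at 574 CPM and *Cd9* at 82.8, and without library 3 *Apoe* stood at 3089 and *Trem2* at 105. No suffix was assigned to a graft and the 4 libraries are not treated as replicates of anything.

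**Figure D3:**
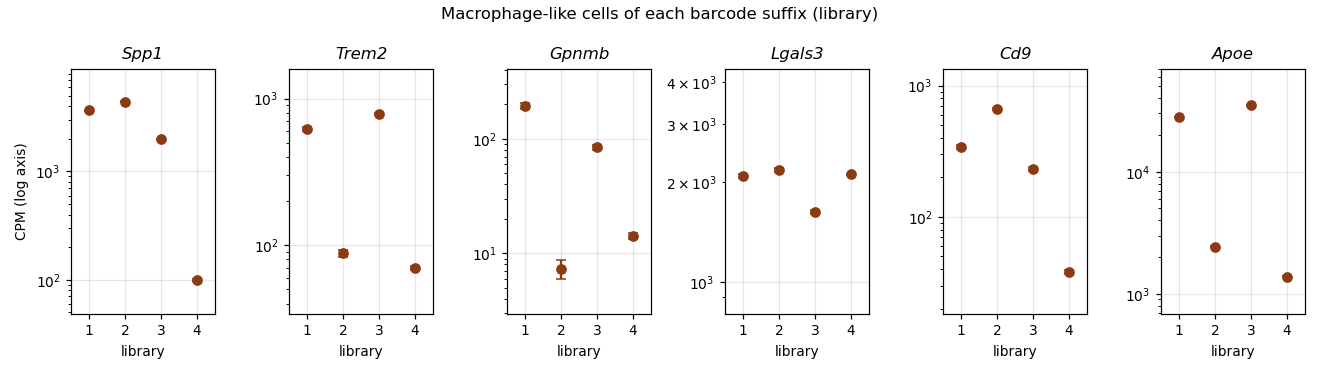
Level of each gene in the macrophage-like cells of libraries 1 to 4 (537, 1001, 1168 and 5874 cells), in CPM on log axes that differ between panels, with exact 95% Poisson intervals. *Trem2* and *Apoe* are high in libraries 1 and 3, *Spp1* and *Cd9* are lowest in library 4, and *Lgals3* stays between 1627 and 2178 CPM.

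Resident-like subcluster 4 allowed the same kind of cell to be compared between libraries 1 and 3, with 325 and 965 cells. *Apoe* was alike at 37271 and 37929 CPM, and *Trem2* stood at 781 and 839.9 CPM. *Spp1* stood at 4739.95 CPM in library 1 and 1706 in library 3, 2.77-fold lower, and 1 cell of library 1 held 7096 of the 20941 UMIs behind its level. With the top cell of each library left out, an alternative chosen after seeing the data, the levels were 3171 and 1577 CPM and the fold was 2.00. A *Spp1* UMI was found in 44.3% of these cells in library 1 and in 63.2% in library 3, at median depths of 12786 and 12755 UMIs, so the shares run against the levels. *Gpnmb* stood at 265 and 90.4 CPM, 2.74-fold lower, or 2.63-fold without the top cells. These 2 genes were the members past 2-fold, where 0.573% of the 7676 genes tested were at least 2-fold lower in library 3 and 0.326% higher. *Cd9* stood at 371 and 218 CPM and *Lgals3* at 2102 and 1596.

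*Spp1* was concentrated in few cells. The 1% of phagocytes with the most *Spp1* UMIs held 59.9% of the 130326 phagocyte UMIs of the gene, and 1 cell alone held 7096. The same share was 65.9% for *Gpnmb*, 23.7% for *Cd9*, 21.3% for *Trem2*, 19.4% for *Apoe* and 9.04% for *Lgals3*. To remove differences in depth, 7616 phagocytes were thinned to 5000 UMIs each, and 2259 shallower cells were left out. The share held by the top 1% was then 44.8% for *Spp1*, 60.3% for *Gpnmb*, 19.0% for *Cd9*, 13.8% for *Trem2*, 13.4% for *Apoe* and 5.20% for *Lgals3*. In thinned resident-like subcluster 4 the median *Spp1* count was 0, the upper quartile 2 and the highest 662. In thinned Arg1-like cells the median was 5, the upper quartile 27 and the highest 521. *Trem2* was more even, with a median of 3 and a highest count of 25 in subcluster 4, and *Apoe* had a median of 181 there against 3 in Arg1-like cells and 0 in infiltrating-like cells.

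The 76 thinned phagocytes with the most *Spp1* UMIs, each with at least 88, were 51 Arg1-like cells of library 2, 22 cells of resident-like subcluster 4 (12 of library 1 and 10 of library 3), 2 cycling cells and 1 unnamed cell. None was infiltrating-like or inflammatory-like. *Cd9* was detected in 93.4% of these 76 cells against 27.4% of the rest, and *Lgals3* in all 76 against 93.6%. *Trem2* was detected in 56.6% against 30.1%, and *Gpnmb* in 21.1% against 4.47%. Any cells tied at the cutoff were taken in the order of the matrix. The 76 cells with the most *Gpnmb* UMIs, each with at least 3, were 62 cells of resident-like subcluster 4, 6 of inflammatory-like subcluster 2 and 8 others. Of them 94.7% held a *Trem2* UMI against 29.7% of the rest, and 80.3% held a *Spp1* UMI against 22.0%.

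*Spp1* and *Trem2* were detected together in 875 of the 7616 thinned phagocytes, 11.5% (10.8 to 12.2), where the product of the single shares is 6.85%, a ratio of 1.68. *Spp1* with *Gpnmb* gave a ratio of 2.46 and *Trem2* with *Gpnmb* 2.14. Within the groups the ratio for *Spp1* with *Trem2* was 1.08 in resident-like subcluster 4, 1.03 in Arg1-like cells, 1.53 in inflammatory-like subcluster 2 and 0.904 in infiltrating-like cells. Inflammatory-like subcluster 3 had a ratio of 1.78 from 14 cells with both. The ratio has a ceiling that falls as the more common gene is found in more cells. *Trem2* was in 86.5% of thinned cells of subcluster 4 and 30.1% of subcluster 2, and *Spp1* in 71.3% of Arg1-like cells. These ratios are therefore not comparable in size between groups. For *Spp1* with *Gpnmb* the ratio in subcluster 4 was 1.66, and 23.7% of cells with a *Spp1* UMI held *Gpnmb* against 6.27% of those without. By library the ratio for *Spp1* with *Trem2* was 1.32, 0.958, 1.12 and 1.75 in libraries 1 to 4. The share with both genes was 6.50% without library 3 and 29.3% without library 4.

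**Figure D4:**
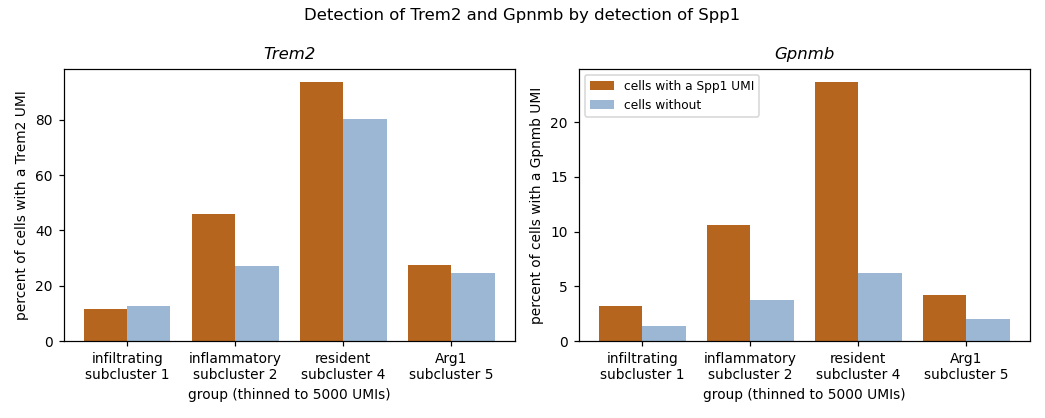
Percent of phagocytes, thinned to 5000 UMIs, that held a UMI of *Trem2* (left) or *Gpnmb* (right), among cells with a *Spp1* UMI (brown bars) and without (blue bars), in 4 subclusters. *Gpnmb* is detected in 23.7% against 6.27% of cells in resident-like subcluster 4, while *Trem2* in Arg1-like cells is at 27.4% against 24.5%.

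In levels rather than detection, 4 of the other 5 genes were at least 2-fold higher in thinned phagocytes with a *Spp1* UMI than in those without, beside 1.47% of the 7530 genes tested. None was 2-fold lower, beside 1.13%. *Gpnmb* was 4.80-fold higher (79.1 against 8.55 CPM), *Cd9* 4.18-fold, *Trem2* 3.42-fold and *Apoe* 3.32-fold, and *Lgals3* 1.26-fold. This count mixes groups and libraries and it was 0 within library 2, 1 within library 3 and 2 without library 4. Inside resident-like subcluster 4 only *Gpnmb* passed 2-fold (6.53-fold, 203 against 22.6 CPM), 1 of 5 genes beside 0.232% of 7749 genes, with *Lgals3* at 1.90-fold and *Trem2* at 1.71-fold. Inside the Arg1-like cells none of the 5 did, beside 0.249% of 7234 genes. Inside inflammatory-like subcluster 2, 4 of 5 did, beside 0.355% of 7315 genes: *Apoe* 3.50-fold, *Gpnmb* 2.97-fold, *Trem2* 2.39-fold and *Cd9* 2.13-fold. Cells of a subcluster share their libraries and are not replicates.

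Splitting the cells by the receptor gene gave another picture. Thinned phagocytes with a *Trem2* UMI were at least 2-fold higher than those without in 3 of the other 5 genes and lower in none, beside 2.61% of 7621 genes higher and 1.33% lower: *Apoe* 16.7-fold, *Gpnmb* 4.58-fold and *Spp1* 2.8-fold. Inside resident-like subcluster 4 the same 3 genes passed, beside 0.709% of 7897 genes higher and 1.13% lower, and *Spp1* stood at 1592 CPM in cells with a *Trem2* UMI and 107 in cells without, 13.7-fold. Inside the Arg1-like cells none of the 5 passed in either direction, beside 0.14% of 7139 genes higher and 0.266% lower, and *Spp1* stood at 5856 and 4445 CPM. Inside inflammatory-like subcluster 2, 3 of 5 passed (*Spp1* 3.76-fold, *Apoe* 3.63-fold and *Gpnmb* 2.13-fold), beside 0.235% of 7223 genes.

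Cells with a *Gpnmb* UMI were at least 2-fold higher in 3 of the other 5 genes and lower in none, beside 1.45% of 7664 genes higher and 0.9% lower: *Apoe* 4.66-fold, *Trem2* 4.63-fold and *Spp1* 4.16-fold. *Cd9* was just inside the threshold at 1.99-fold. Inside resident-like subcluster 4, 2 of 5 passed, *Spp1* at 3909 against 973 CPM and *Lgals3* at 2798 against 1055, beside 0.552% of 7791 genes higher and 0.886% lower. Inside inflammatory-like subcluster 2, 4 of 5 passed, *Spp1* 5.96-fold, *Apoe* 3.91-fold, *Trem2* 2.33-fold and *Cd9* 2.05-fold, beside 0.645% of 7439 genes higher and 0.538% lower.

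All 6 genes were detected at once in 99 of the 7616 thinned phagocytes, 1.30% (1.06 to 1.58). Of these, 83 were in resident-like subcluster 4, 7.02% of its 1182 thinned cells (5.63 to 8.63). Inflammatory-like subcluster 2 held 7 such cells of 1808, Arg1-like cells 4 of 697 and the unnamed subcluster 7, which endothelial genes led, 5 of 77. No such cell was found among 1912 infiltrating-like cells, a share of at most 0.193% by the exact interval, or among 130 cells of resident-like subcluster 10. The median number of members detected was 4 in subcluster 4 and in Arg1-like cells, 3 in subcluster 10, and 2 in infiltrating-like and inflammatory-like cells.

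**Figure D5:**
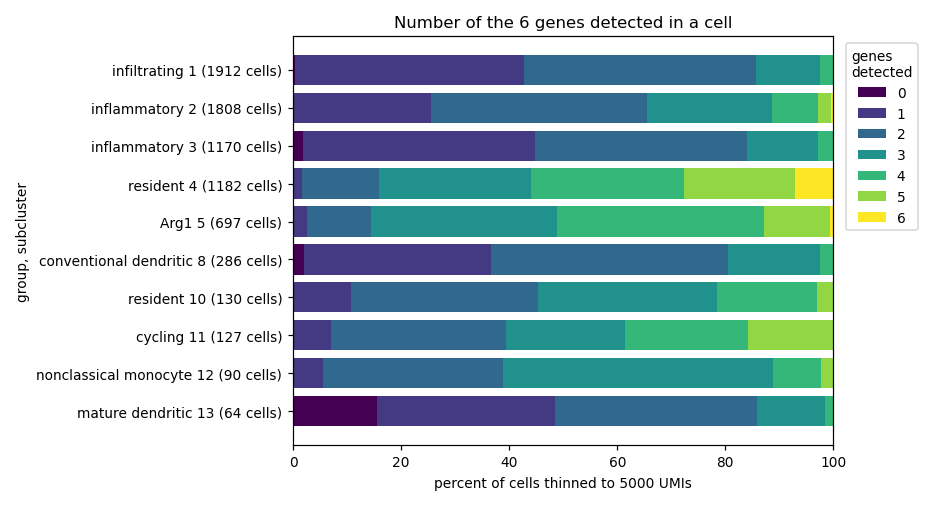
Percent of phagocytes, thinned to 5000 UMIs, in which 0 to 6 of the 6 genes were detected (colours), for the 10 named subclusters with their cell numbers. Resident-like subcluster 4 holds 83 of the 99 cells with 6 genes, and infiltrating-like cells mostly hold 1 or 2.

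Genes of the pathways around the members were read from 5 lists holding 68 genes, of which 67 were in the matrix (*Clec7a* was not analysed here). Of the genes of TREM2 signalling, 7 of 10 tested were at least 2-fold higher in macrophage-like than in all other cells and none was lower, with a median log2 fold of 1.89 beside -0.27 over all genes tested, of which 9.01% were higher and 20.1% lower. They included *Tyrobp*, the adaptor itself, at 2503 against 286 CPM, the kinase gene *Syk* at 152 against 25.2 and the phospholipase gene *Plcg2* at 87.3 against 7.42. Between infiltrating-like and resident-like cells 1 of 10 was higher (*Ms4a6d*, 1259 against 508 CPM) and none was lower, beside 6.81% and 8.6% of all genes, and the median log2 fold was 0.09.

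Of the lysosomal and lipid-handling genes, 13 of 24 tested were at least 2-fold lower in infiltrating-like than in resident-like cells and none was higher, beside 8.6% and 6.81% of all genes, with a median log2 fold of -1.33 beside -0.02 over all genes. *Cd63*, a lysosomal tetraspanin, stood at 27.8 against 1050.2 CPM, the protease gene *Ctsd* at 790.1 against 3073, the fatty-acid-binding gene *Fabp5* at 201 against 769 and the lysosomal lipase gene *Lipa* at 48.8 against 258. In Arg1-like against infiltrating-like cells 7 of 22 were higher and 1 was lower, beside 5.48% and 8.1% of all genes. *Fabp4* (717 against 35.5 CPM), *Cd63* (357 against 27.8) and the scavenger receptor gene *Cd36* (122 against 14.0) were among the former, and *Npc2* (461 against 1299.7 CPM), which moves cholesterol out of lysosomes, was the latter. Against resident-like cells 3 of 24 were higher and 8 lower in the Arg1-like cells, beside 4.72% and 9.17%. Within library 2 the same contrast gave 3 of 21 higher and 3 lower, beside 3.99% and 4.49%. The median log2 fold was then -0.15 beside -0.16 over all genes. In resident-like subcluster 10 against subcluster 4, 4 of 24 were higher and 10 lower, beside 4.73% and 5.48%. Inside library 4, inflammatory-like cells exceeded infiltrating-like cells in 3 of 21 (*Fabp5*, *Cd63* and *Timp2*), beside 0.511% of all genes, and were 2-fold below them in none.

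Among partners of cholesterol efflux and apolipoprotein E, 3 of 10 genes tested were lower and 2 higher in infiltrating-like than in resident-like cells, beside 8.6% and 6.81% of all genes here and for the next 2 lists. *Pltp*, a phospholipid transfer protein, stood at 23.9 against 656 CPM and the cholesterol exporter gene *Abca1* at 30.7 against 283. Of the osteopontin receptors, 3 of 7 were lower, among them the integrin genes *Itgb5* (28.8 against 268 CPM) and *Itgav* (26.6 against 105), and 1 was higher, *Itga4* at 179 against 59.1. In Arg1-like against infiltrating-like cells 1 of 6 receptors was higher, the non-integrin receptor gene *Cd44* at 807 against 281 CPM, and 1 was lower, *Itga4* at 29.6 against 179, beside 5.48% and 8.1% of all genes. Of the galectin-3 and tetraspanin partners, 2 of 8 were lower in infiltrating-like than in resident-like cells and 1 was higher, beside 8.6% and 6.81% of all genes. The lower ones were *Cd81* at 53.5 against 519 CPM and *Cd37* at 26.2 against 89.9, and the higher one was *Lgals9* at 178 against 77.3.

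The genes closest in pattern to each member were ranked by Pearson's r of log2(CPM + 10) over the 14 phagocyte subclusters, among 5059 genes. The subclusters come from shared libraries and include shallow and unnamed ones, so r is a description. In unnamed subcluster 14 erythroid markers summed to 807288 CPM. *Spp1* was followed most closely by *Lhfpl2* (r = 0.966), with *Pdpn*, *Nt5dc2*, *Fam20c* and *Pf4* between 0.825 and 0.848. *Trem2* was followed by *Itgb5* (0.975), *Selenop*, *Tnfsf12*, *Rnase4* and *Ms4a7* (0.951), and *Apoe* by *Selenop* (0.955), *Rnase4*, *Ms4a7*, *Tmem37* and *Serpinb6a* (0.932). *Gpnmb* was followed by *Syngr1* (0.939), *Arhgap19*, *Gpr34*, *Ulk2* and *Hebp1* (0.889), *Lgals3* by *Ccr2* (0.932), *Vim*, *Gm2a*, *Fuca2* and *Vegfa* (0.859), and *Cd9* by *Sulf2* (0.864), *Cd37*, *Ddit4*, *Kcnq1ot1* and *Errfi1* (0.826). Between members, *Trem2* with *Apoe* reached 0.960, *Trem2* with *Gpnmb* 0.80 and *Spp1* with *Trem2* 0.771, while *Lgals3* with *Apoe* was at 0.0927. Over the 10 named subclusters alone, r for the same pairs was 0.951, 0.725, 0.736 and -0.0596.

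Over the 12 cell classes the order of neighbours changed. *Trem2* was followed by *C3ar1* (r = 0.990), *Adgre1*, *Ms4a7*, *Mrc1* and *Slc7a8* (0.954), and *Lgals3* by *Fcer1g* (0.968), *Tyrobp*, *Evi2a*, *Lst1* and *Csf2ra* (0.944). *Spp1* was followed by *Mmp19* (0.929), *Ctsd*, *Hmox1*, *Ftl1-ps1* and *Ap3s1* (0.891). *Gpnmb* was followed by *Vcan* (0.934), *C4b*, *Gas7*, *Igf1* and *Nrg1* (0.878), *Apoe* by *Rab3il1* (0.870), *C4b*, *Hexa*, *Lgmn* and *Vcan* (0.809), and *Cd9* by *Nfkbiz* (0.944), *Wbp1l*, *Qsox1*, *Selenon* and *Neat1* (0.922). *Ftl1-ps1* is a near copy of the ferritin gene *Ftl1*, and its count may hold reads of that gene.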

How the data were processed

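Single-cell RNA sequencing had been run on 4 heart grafts with the 10x Genomics Chromium 3′ kit. Per the file headers and the submitters' processing notes, the authors made the deposited counts, whole UMI counts per gene and cell, with Cell Ranger 3.0.0 against mm10, and the notes also name CASAVA 1.8 and Seurat. All libraries are in 1 matrix, whose barcode suffix was not tied to a graft, so it was treated as 1 pooled sample; 0 columns of per-sample values were left unmapped.

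Following the study's methods, cells with over 200 genes and under 20% mitochondrial UMIs were kept, mitochondrial genes were removed, and the 5% of cells per library nearest to simulated doublets were dropped. Cells were scaled to 10000 UMIs, and 2000 variable genes and 10 principal components gave a graph that was cut with leidenalg 0.10.2 at resolution 0.8, and at 0.5 for the phagocytes. Neither the 6 genes nor the related genes entered the clustering. Clusters were named "-like" from marker lists with at least 3 markers detected, by the list with most markers among the top 10 genes by fold, ties going to the list with the higher share of its markers. This scoring rule was revised after a first clustering had been seen, because the first version (highest share of markers) left a cluster led by *Ly6c2* and *Plac8* unnamed. Clusters led by another type, with too few markers, or with a median depth under 0.333 times that of their library and no marker among the top 10 genes stayed unnamed. The members and lists were chosen with earlier results of these data known.

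Levels are pooled CPM with exact 95% Poisson intervals, and shares have Clopper-Pearson intervals. Folds add 10 CPM to both levels, genes at 10 CPM or more in either group were tested for size, and a gene at 2-fold or more was called. No p-value was computed, since the replicate grafts cannot be identified in the matrix. Cells were thinned to 1000 UMIs between classes and 5000 among phagocytes, and shallower cells were left out of the thinned values. The genes named beyond the members were the 5 with the highest Pearson's r to each member and listed pathway genes. The code was tested on simulated data. Python 3.11.15, numpy 2.4.6, scipy 1.17.1, scikit-learn 1.9.0, igraph 0.11.9 and matplotlib 3.10.9 were used. Allogeneic and syngeneic grafts were not compared.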

Additional observations from a re-analysis of the deposited data

How the results depend on the processing

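No paired analysis was possible because the columns of the matrix carry no graft, although the labels number the grafts of both kinds alike. The count of members at least 2-fold higher in infiltrating-like than in resident-like cells was 0, and it was 1 (*Lgals3*) with the second clustering at resolution 0.3, with the first at 0.4 and with under 10% mitochondrial UMIs. *Gpnmb* reversed to a log2 fold of 0.10 and 0.18 in the first 2 of these. The resident-like group then held 145, 275 and 130 cells, and why the calls moved was not tested. In alternatives chosen after seeing the data, the count was 4 for inflammatory-like against infiltrating-like cells within library 4, and 2 for Arg1-like against resident-like cells in place of 4 against infiltrating-like cells. The share of thinned phagocytes with both *Spp1* and *Trem2* was 11.5%. It was 2.90% at 1000 UMIs and 17.5% without thinning, which follows from the depth kept. It ranged from 6.50% to 29.3% when 1 library was left out (10.8% without library 1), and was 23.0%, 16.8%, 41.8% and 3.41% within libraries 1 to 4. The count of members higher in cells with a *Spp1* UMI was 4, and it was 2 without library 4, 0 within library 2 and 1 within library 3. Within library 2 the log2 folds reversed to -0.21 for *Trem2*, -0.10 for *Gpnmb* and -0.97 for *Apoe*. Without library 2 no Arg1-like comparison, and without library 4 no infiltrating-like comparison, gave a value, and no Arg1-like group was named with under 10% mitochondrial UMIs. With the cell holding the most UMIs of the gene left out of each group, also chosen after seeing the data, 52 of 54 calls of members were the same, and *Gpnmb* fell under 2-fold in both contrasts within library 4. The splits of cells by a *Spp1*, *Trem2* or *Gpnmb* UMI were not among these 54 calls. Intervals cover counting error only, and with 1 pooled matrix no spread between grafts can be given.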

Other observations

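*Spp1* also had a site outside the phagocytes that belonged to 1 library. Cluster 17 held 1000 cells, all of library 2, and was led by genes that included the chemokine genes *Cxcl5* and *Cxcl1* and the cytokine gene *Csf3*. Its endothelial-like name rests on 3 markers (*Cdh5*, *Gpihbp1* and *Egfl7*). *Spp1* stood at 1307.5 CPM there (1271 to 1344) and was detected in 87.8% of its cells, whose median depth was 3752 UMIs. *Cd9* stood at 795 CPM, *Apoe* at 569 and *Lgals3* at 482, while *Trem2* (16.3 CPM) and *Gpnmb* (6.30 CPM) were low. Endothelial-like cells as a whole had 172 CPM of *Spp1* in library 2 and 16.4, 15.8 and 7.22 in libraries 1, 3 and 4.

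The fibroblast-like clusters divided the members among them. Cluster 6, 1804 of its 2249 cells from library 1 and led by *Gsn*, *Clec3b* and *Htra3*, had 7734 CPM of *Apoe* and 57.0 of *Gpnmb* but 14.0 of *Spp1*. Cluster 7, 1579 of its 1974 cells from library 3 and led by *Cilp*, *Sfrp2* and the matrix gene *Postn*, had 1597 CPM of *Apoe*, 25.3 of *Gpnmb* and 229 of *Spp1*. Cluster 23, 569 of its 575 cells from library 4 and led by *Timp1* and *Cxcl14*, had 528 CPM of *Apoe*, 6.14 of *Gpnmb* and 559 of *Spp1*. In level, *Apoe* and *Gpnmb* thus ran in the opposite order to *Spp1* over these 3 clusters, and cluster and library cannot be told apart. The share of cells with a *Spp1* UMI was 11.8%, 34.5% and 33.9% in clusters 6, 7 and 23, at median depths of 11250, 20262.5 and 25803 UMIs. A single cell held 1692 of the 9389 *Spp1* UMIs of cluster 7, and another 2069 of the 8470 of cluster 23. The 322 B-like cells had 1438 CPM of *Apoe*, with 1677 in library 3 and 1104 in library 4.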
